A study of Mus musculus with 4 samples.

Results

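The renin-angiotensin and endothelin systems were examined through 9 genes, of which 8 were measured. The 9 symbols (Agt, Ace, Agtr1a, Agtr2, Edn1, Edn3, Ednra, Ednrb and Ece1) were looked up in the platform's annotation, and a symbol with several probes would have been represented by the one with the highest mean over the 4 arrays. Each of the 8 matched symbols had 1 probe, out of 19505 symbols named on the array. Ednra, the endothelin receptor of smooth muscle, matched no named probe by symbol or gene identifier and was not analysed here.

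RNA from 4 hearts of male mice, taken 3 months after myocardial infarction (MI), had been hybridised to Clariom S Mouse arrays. The left coronary artery had been closed by a suture when the mice were 8 weeks old, and mice whose ejection fraction stayed high soon after surgery had been removed. TTg-MI hearts (2 arrays) came from mice of genotype Tcf21iCre/Tomato/MGTH2A, and Ctrl-MI hearts (2 arrays) from mice of genotype Tcf21iCre/Tomato. All 4 mice thus carried the Tomato reporter and a Cre recombinase driven by Tcf21, which marks fibroblasts of the heart, and all 4 were infarcted. MGTH2A is known in the field as one construct that encodes Mef2c, Gata4, Tbx5 and Hand2, transcription factors of heart muscle, used to turn fibroblasts towards a cardiomyocyte state. The labels name no agent that induces the Cre. They give the whole heart as source, in which fewer cells of a type and less RNA per cell cannot be told apart. No uninfarcted heart was among the samples.

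In the renin-angiotensin system the enzyme renin cuts angiotensinogen, the product of Agt, and angiotensin converting enzyme (Ace) trims the released peptide to angiotensin II. The type 1 receptor (Agtr1a, the main form in rodents) mediates vessel constriction, salt retention and growth of heart muscle and scar, while the type 2 receptor (Agtr2) is mostly a fetal receptor with opposing actions. In the endothelin system, precursors encoded by Edn1 and Edn3 are cut by endothelin converting enzyme (Ece1) and act on the receptors Ednra, which contracts smooth muscle, and Ednrb, which on endothelium releases vasodilators and clears endothelin from the blood. Both systems are activated after infarction, and drugs against the converting enzyme and the type 1 receptor are standard treatment of the failing heart.

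The promoters of the 4 members whose TTg-MI arrays did not overlap the Ctrl-MI arrays are shown, since the transgene's products bind DNA. They are the 250 bases before a RefSeq transcript start in build GRCm38.p6, 5' to 3' on the strand of the gene. Capitals mark matches, on either strand, to the TATA box (TATAAA) or the E-box (CANNTG), the core bound by Hand2-type factors. For Ace the start of the longer, somatic transcript is shown.
Ednrb, chr14:103843702-103843951, minus strand: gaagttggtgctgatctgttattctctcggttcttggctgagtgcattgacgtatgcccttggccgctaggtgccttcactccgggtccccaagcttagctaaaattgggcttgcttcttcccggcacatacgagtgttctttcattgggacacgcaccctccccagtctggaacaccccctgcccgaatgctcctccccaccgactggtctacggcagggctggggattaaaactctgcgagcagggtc
Ace, chr11:105967698-105967947, plus strand: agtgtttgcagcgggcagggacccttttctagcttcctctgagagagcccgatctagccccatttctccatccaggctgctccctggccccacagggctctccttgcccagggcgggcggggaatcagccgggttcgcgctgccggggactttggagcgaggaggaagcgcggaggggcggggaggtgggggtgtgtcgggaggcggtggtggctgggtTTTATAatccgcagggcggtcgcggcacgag
Agt, chr8:124569707-124569956, minus strand: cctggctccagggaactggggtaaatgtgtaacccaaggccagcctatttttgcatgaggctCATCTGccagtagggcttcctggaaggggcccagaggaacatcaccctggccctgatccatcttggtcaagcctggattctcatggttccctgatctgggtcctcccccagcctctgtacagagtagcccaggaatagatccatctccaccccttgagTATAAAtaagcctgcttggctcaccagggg
Agtr2, chrX:21484374-21484623, plus strand: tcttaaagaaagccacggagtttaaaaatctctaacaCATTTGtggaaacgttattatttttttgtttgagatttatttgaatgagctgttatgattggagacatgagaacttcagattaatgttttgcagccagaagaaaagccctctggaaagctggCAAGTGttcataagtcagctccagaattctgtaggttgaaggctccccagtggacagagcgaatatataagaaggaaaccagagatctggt

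The TATA box lay at positions -30 to -25 from the start in Agt and, on the other strand, at -31 to -26 in Ace, with -1 the base before the start. An E-box match was found at 1 place in Agt and at 2 places in Agtr2, and at none in Ednrb or this Ace window. The GATA motif, spelled GATAA, the T-box motif, spelled AGGTGT, and the MEF2 motif were searched on both strands and found in none of the 4 windows. No match overlapped another. Of 32851 RefSeq promoter windows of this length, 12.4% held the TATA box, 66.2% an E-box, 22.6% the GATA motif, 11.8% the T-box motif and 2.92% the MEF2 motif. Among members whose groups overlapped, Ece1 windows held T-box and E-box matches, the Edn3 window held 2 E-boxes and the Edn1 window held no match. A match is a match of letters only, and binding was not measured here.

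Values are the deposited expression values, read as log2 units. Probes differ in brightness, so a gene is compared only with itself between arrays. Ctrl-MI replicate 1 stood apart from the other 3 arrays on the first principal component, which held 58.4% of the variance, with a score of 47.1 against -31.9 to 1.29. Array medians lay between 6.55 and 6.62. Of the transgene's factor genes, Tbx5 read 10.68 and 9.72 in TTg-MI, against 7.62 and 7.88 in Ctrl-MI, and Mef2c read 16.01 and 13.97, against 12.67 and 13.02. Neither passed the adjusted test, at adjusted p of 0.530 and 0.546 in limma. For Gata4 and Hand2 the groups overlapped. Ventricular muscle markers were high on every array, with Myh6 and Tnnt2 above 19. The atrial muscle markers were uneven. Myl4 and Sln read 7.70 and 7.90 on Ctrl-MI replicate 2, against 13.06 or more on the other 3 arrays. Myl7 read 5.61 on Ctrl-MI replicate 2, against 10.44 or more. Nppa, however, read 19.90 on that array, and Bmp10 was low on both Ctrl-MI arrays (5.31 and 5.40).

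As a group, the 8 measured genes gave 0 passes in limma after Benjamini-Hochberg adjustment over all 22206 probes, where 0.0045% of all probes passed. At an unadjusted limma p under 0.05 there were 3 of 8, with Ednrb and Ace lower and Agtr2 higher in TTg-MI, where 8.25% of all probes lay under this level, 3.18% higher and 5.07% lower. An ordinary linear model gave 0 after adjustment and 2, both higher, before it (5.59% of all probes). The groups did not overlap for 4 of 8 genes, where this held for 38.1% of all probes. Agt and Agtr2 were higher on each TTg-MI array (19.4% of all probes), and Ace and Ednrb were lower on each (18.7%). The median log2 difference of the 8 genes, TTg-MI minus Ctrl-MI, was -0.34, beside 0.01 for all probes, with 3 genes higher and 5 lower. That median turned to 0.13 when Ctrl-MI replicate 1 was left out, where 1 gene and 6.34% of all probes were under the unadjusted level. It turned to 0.19 when TTg-MI replicate 2 was left out, where 1 gene and 3.88% of all probes were. Without Ctrl-MI replicate 2, Ace and Edn1 passed the adjusted test, as did 1.5% of all probes.

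**Figure D1:**
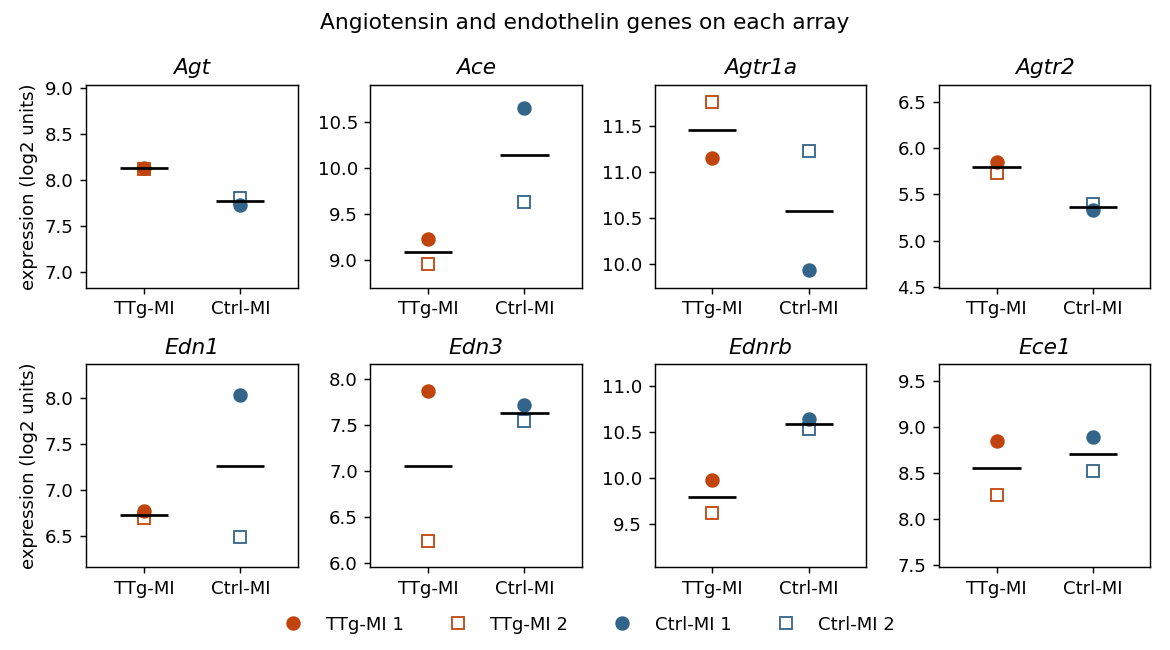
Expression in log2 units of the 8 measured genes on each array, with TTg-MI hearts left of Ctrl-MI hearts. Filled circles are replicate 1, open squares replicate 2 and lines the group means, and every panel spans the same number of log2 units. The groups are apart for Agt, Ace, Agtr2 and Ednrb and overlap for the other 4 genes.

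Of the substrate and enzyme of the angiotensin pathway, Ace was lower in TTg-MI hearts and Agt slightly higher. Ace, which makes angiotensin II and also breaks down bradykinin, read 9.23 and 8.95 in TTg-MI hearts, against 10.65 and 9.63 in Ctrl-MI hearts. Both TTg-MI values lay below both Ctrl-MI values, and the highest by a full log2 unit was Ctrl-MI replicate 1. The group means were 9.09 ± 0.19 and 10.14 ± 0.72 (SD, n = 2 each), a 2.06-fold lower level in TTg-MI. The log2 difference was -1.04 (SE 0.35, 95% interval -1.92 to -0.17), with an adjusted p of 0.572 in limma. It shrank to -0.53 when Ctrl-MI replicate 1 was left out. When Ctrl-MI replicate 2 was left out it came to -1.56, with Ctrl-MI replicate 1 alone in its group.

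Agt, the precursor gene, read 8.13 and 8.12 in TTg-MI hearts, against 7.73 and 7.80 in Ctrl-MI hearts. The replicates lay close together and the groups apart. The difference was small, 1.28-fold, with a log2 difference of 0.36 (SE 0.15, 95% interval -0.01 to 0.73) and an adjusted p of 0.611 in limma. It was between 0.32 and 0.39 whichever array was left out. Renin itself (Ren1) matched no named probe and was not analysed here.

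The 2 angiotensin receptors measured among the members both had a higher mean in TTg-MI hearts. Agtr1a, the constrictor and growth receptor, read 11.15 and 11.76 in TTg-MI hearts, against 9.94 and 11.23 in Ctrl-MI hearts. The groups overlapped, since Ctrl-MI replicate 2 was above TTg-MI replicate 1, and the low value was that of Ctrl-MI replicate 1. The log2 difference of 0.88 (SE 0.45, 95% interval -0.25 to 2.00) had an adjusted p of 0.684 in limma and did not exceed the spread between replicates. Leaving out Ctrl-MI replicate 1 gave 0.23, leaving out TTg-MI replicate 2 gave 0.57 and leaving out Ctrl-MI replicate 2 gave 1.52.

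Agtr2, the opposing type 2 receptor, read 5.85 and 5.74 in TTg-MI hearts, against 5.33 and 5.40 in Ctrl-MI hearts. The groups were apart, but each Ctrl-MI value was smaller than the lower quartile of its array (5.48 and 5.41) and was not shown to exceed background. The TTg-MI values lay only slightly above the lower quartiles of their arrays (5.48 and 5.47) and were not shown to exceed background either. The log2 difference was 0.43 (SE 0.15, 95% interval 0.05 to 0.81), with an adjusted p of 0.580 in limma. It may understate the true size or lie within background, which was not tested. The difference was between 0.38 and 0.49 whichever array was left out.

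Agtr1b, the near-identical second copy of the type 1 receptor gene in rodents, is given here because of that likeness and was chosen after its values were seen. It read 5.96 and 5.77 in TTg-MI hearts, against 5.90 and 5.81 in Ctrl-MI hearts, with a log2 difference of 0.01 (SE 0.16). These values lay under the array medians and were not shown to exceed background. Whether either probe also reads the other copy was not tested.

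Among the endothelin genes, the receptor Ednrb was lower in TTg-MI hearts on every array, while the ligands and the converting enzyme overlapped between groups. Ednrb read 9.97 and 9.62 in TTg-MI hearts, against 10.64 and 10.52 in Ctrl-MI hearts. All 4 values kept to their group, with a gap between groups wider than either pair's own spread. The means were 9.79 ± 0.25 and 10.58 ± 0.08 (SD, n = 2 each), a 1.73-fold lower level in TTg-MI. The log2 difference was -0.79 (SE 0.18, 95% interval -1.25 to -0.33), which had the smallest unadjusted p of the 8 genes, 0.00610, but an adjusted p of 0.546 in limma. Whichever array was left out, it stayed between -0.96 and -0.61.

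Edn1, the gene of the main endothelial constrictor endothelin-1, read 6.77 and 6.69 in TTg-MI hearts, against 8.03 and 6.49 in Ctrl-MI hearts. A single array, Ctrl-MI replicate 1, was high, and the other Ctrl-MI value was the lowest of the 4. The log2 difference of -0.53 (SE 0.49, 95% interval -1.74 to 0.68) had an adjusted p of 0.842 in limma. It turned to 0.24 when Ctrl-MI replicate 1 was left out. When Ctrl-MI replicate 2 was left out it came to -1.30, with the high Ctrl-MI replicate 1 alone in its group.

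Edn3, whose peptide acts mainly through Ednrb and is needed for neural crest derivatives, read 7.87 and 6.24 in TTg-MI hearts, against 7.71 and 7.54 in Ctrl-MI hearts. The TTg-MI arrays held both the highest and the lowest value. The log2 difference of -0.57 (SE 0.51, 95% interval -1.85 to 0.70) had an adjusted p of 0.841 in limma. Leaving out TTg-MI replicate 1 gave -1.38, and leaving out TTg-MI replicate 2 gave 0.24.

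Ece1, which releases active endothelin from its precursor, read 8.85 and 8.26 in TTg-MI hearts, against 8.89 and 8.52 in Ctrl-MI hearts. The arrays of the groups interleaved, and the log2 difference of -0.15 (SE 0.25, 95% interval -0.78 to 0.48; adjusted p = 0.933 in limma) was smaller than the spread within either group. Leaving out Ctrl-MI replicate 1 gave 0.03 and leaving out Ctrl-MI replicate 2 gave -0.33. Leaving out TTg-MI replicate 1 gave -0.44 and leaving out TTg-MI replicate 2 gave 0.14.

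**Figure D2:**
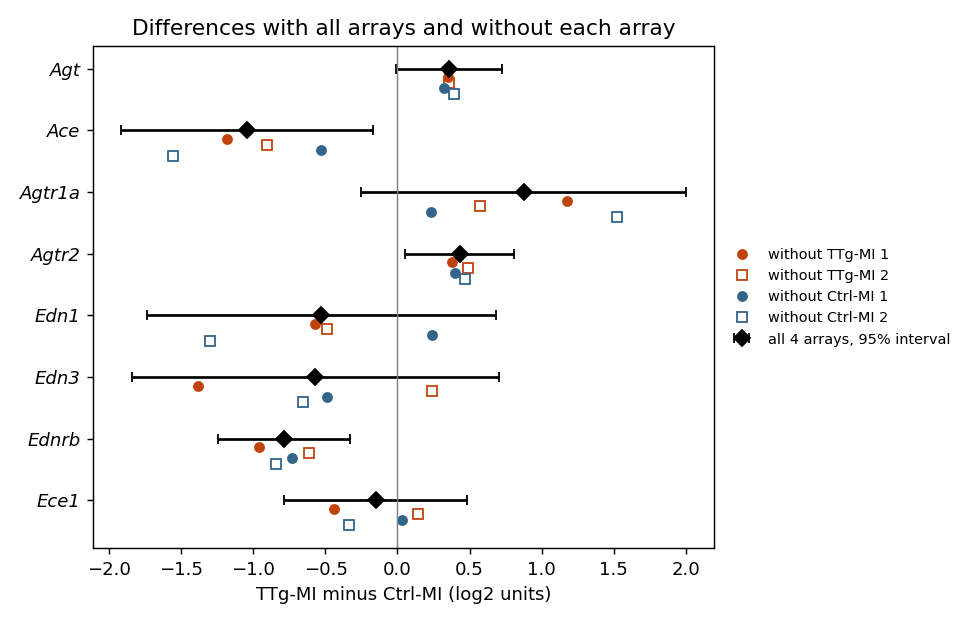
Log2 difference, TTg-MI minus Ctrl-MI, of each gene. Black diamonds with bars are the estimate from all 4 arrays with its 95% interval in limma, and coloured symbols are the difference without 1 array. Agt, Agtr2, Ace and Ednrb, whose groups do not overlap, cannot change sign when 1 array is left out. Agtr1a, whose groups overlap, keeps its sign, while Edn1, Edn3 and Ece1 fall on both sides of 0.

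The samples were also read for markers of the cells that make these gene products. Of 6 measured fibroblast markers, all 6 were lower on both TTg-MI arrays, as were 18.7% of all probes, with a mean level of 12.51 and 11.87 in TTg-MI, against 13.71 and 12.87 in Ctrl-MI. Of 5 measured macrophage markers, all 5 were lower on both TTg-MI arrays, beside the same 18.7% of all probes, with a mean level of 9.32 and 8.68, against 11.03 and 9.78. Endothelial markers, cells in which Ace, Edn1 and Ednrb are known to be made, were mixed. Their mean level was 12.45 and 12.08 in TTg-MI, against 12.30 and 12.05 in Ctrl-MI, with Tie1 higher (log2 difference 0.69, SE 0.24) and Pecam1 lower (-0.56, SE 0.19).

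Pericyte markers, of cells that carry Agtr1a, averaged 11.07 and 11.03 in TTg-MI, against 10.68 and 11.15 in Ctrl-MI. Endocardial markers averaged 9.73 and 8.78 in TTg-MI, against 10.25 and 8.996 in Ctrl-MI, and smooth muscle markers 8.59 and 8.52, against 8.60 and 8.31. The pericyte list had 3 higher and 3 lower means in TTg-MI, with Abcc9 at a log2 difference of 1.19 (SE 0.50) and Pdgfrb at -0.34 (SE 0.23). The smooth muscle list had 3 higher and 2 lower, with Acta2 at 1.26 (SE 0.26) and Tagln at -0.79 (SE 0.51). No measured marker of these 6 lists lay under the lower quartile on all 4 arrays, and none passed the adjusted test in limma. Of the markers of lymphatic, epicardial, Schwann, adipocyte, mast and muscle cells, 1 passed it, Bmp10 of atrial muscle, with 12.38 and 11.82 in TTg-MI, against 5.31 and 5.40 in Ctrl-MI (adjusted p = 0.00489 in limma). The part of these cell types in the differences of Ace, Ednrb and Agtr1a was not tested.

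**Figure D3:**
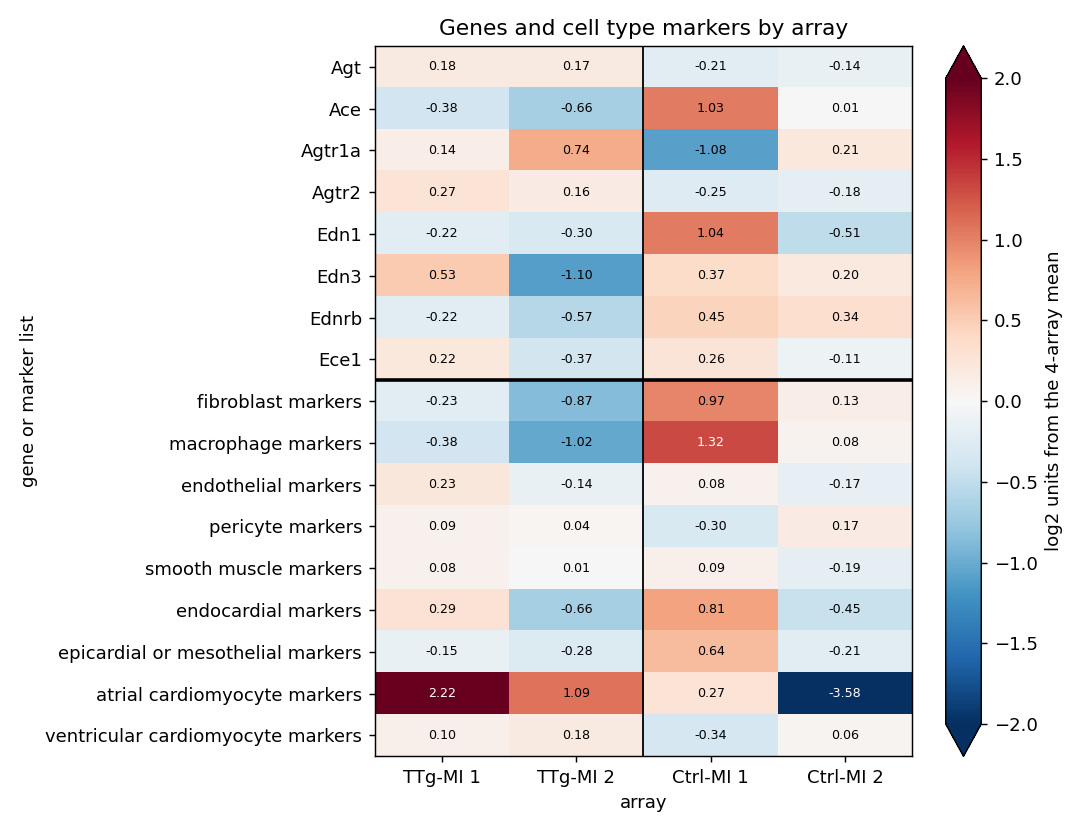
Each row shows a gene's log2 value, or the mean log2 value of a list of cell type markers, relative to its own mean over the 4 arrays, with TTg-MI arrays left of Ctrl-MI arrays. Ace, Edn1, Ednrb, Ece1 and the fibroblast, macrophage, endocardial, epicardial and smooth muscle markers are highest on Ctrl-MI replicate 1. Agt, Agtr1a, Agtr2 and the means of the pericyte and ventricular muscle markers are lowest there. Within the pericyte list the markers differ. Abcc9 is lowest on Ctrl-MI replicate 1 by the widest margin (13.38, against 14.91 or more), and Rgs5 and Kcnj8 are also lowest there. Cspg4 and Vtn are lowest on TTg-MI replicate 1, and Pdgfrb is highest on Ctrl-MI replicate 1 (11.11). The atrial markers are at -3.58 log2 units on Ctrl-MI replicate 2. Colours end at 2 log2 units on either side.

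The genes whose values over the 4 arrays were most like those of Ednrb and Ace were sought among 19504 other symbols, by the root mean square difference of values centred on each gene's mean. For Ednrb the closest were Il17rc (0.02 log2 units), an interleukin 17 receptor chain, Sptlc2 (0.03), a subunit of the enzyme that starts sphingolipid synthesis, and Clec12a (0.03), a myeloid lectin receptor. For Ace they were Adgre1 (0.03), the macrophage marker F4/80, Fibin (0.04) and Mxra8 (0.05). Clec12a read 5.34 on TTg-MI replicate 2, under that array's lower quartile of 5.47. The likeness rests on 4 arrays and is a description of them only.

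Of 22 further genes of the systems, 18 were measured, with 13 higher and 5 lower means in TTg-MI and a median log2 difference of 0.10. Apart from Mme, Nr3c2 and Ecel1, the genes with higher means differed by 0.24 or less. Their TTg-MI means were 6.13 or less, under the array medians, and were not shown to exceed background. In limma 0 passed over all probes, and 2 higher and 1 lower had an unadjusted p under 0.05, where 3.18% of all probes were higher and 5.07% lower at this level. The higher ones were Ecel1, a relative of Ece1 known from neurons, and Mme, neprilysin, which degrades angiotensins, endothelins and natriuretic peptides. Ecel1 read 6.66 and 6.57 in TTg-MI hearts, against 6.23 and 6.01 in Ctrl-MI hearts (log2 difference 0.49, SE 0.16). Mme read 7.61 and 7.65 in TTg-MI hearts, against 6.30 and 7.27 in Ctrl-MI hearts (0.85, SE 0.33), and differed by 0.36 without Ctrl-MI replicate 1. The lower one was Anpep, aminopeptidase N, which trims angiotensin peptides, with 9.33 and 9.03 in TTg-MI hearts, against 9.84 and 9.51 in Ctrl-MI hearts (-0.50, SE 0.20).

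Among the remaining genes of this list the widest difference was that of Nr3c2, the mineralocorticoid receptor through which aldosterone acts. It read 9.17 and 9.80 in TTg-MI hearts, against 8.16 and 9.13 in Ctrl-MI hearts, a log2 difference of 0.83 (SE 0.38; adjusted p = 0.631 in limma). The groups were apart by a narrow margin, and the value dropped to 0.35 if Ctrl-MI replicate 1 was omitted and to 0.52 if TTg-MI replicate 2 was. Ctsg, Cyp11b2 (aldosterone synthase) and Kng1 lay under the lower quartile of all 4 arrays. With TTg-MI replicate 2 omitted, 0 genes of the list had an unadjusted p under 0.05, and with TTg-MI replicate 1 omitted there was 1.

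Genes that angiotensin II or endothelin are known to induce in heart cells had lower means in TTg-MI hearts for all 10 measured of 12, with a median log2 difference of -1.67. Like the list of further system genes, this list was chosen with earlier results of these data known. In limma 0 passed over all probes, 5 had an unadjusted p under 0.05, all lower, where 5.07% of all probes were, and for 8 of 10 each TTg-MI value was under each Ctrl-MI value, as for 18.7% of all probes. These genes also answer to stretch, to transforming growth factor beta and to other signals, and several are made by fibroblasts or macrophages. Nppa, also one of the atrial markers, read 19.91 and 18.85 in TTg-MI hearts, against 19.92 and 19.90 in Ctrl-MI hearts. Of its values, 3 lay within 1 log2 unit of the array's highest value. Without TTg-MI replicate 2 its difference was -0.003.

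Of the muscle genes in this list, Myh7, the fetal beta myosin heavy chain, read 17.75 and 17.12 in TTg-MI hearts, against 18.93 and 18.87 in Ctrl-MI hearts (log2 difference -1.46, SE 0.24). Acta1, skeletal actin, read 16.98 and 14.15 in TTg-MI hearts, against 19.06 and 19.50 in Ctrl-MI hearts (-3.72, SE 0.87). Both Ctrl-MI values of Acta1 and 1 of Myh7 lay within 1 log2 unit of the array's highest value, so these differences may understate the true size. Rcan1, a calcineurin target and inhibitor, read 12.86 and 9.97 in TTg-MI hearts, against 14.86 and 13.12 in Ctrl-MI hearts (-2.57, SE 1.02). Without TTg-MI replicate 2, the array with the lower value for each of the 3, the differences of Acta1 and Rcan1 were -2.30 and -1.13.

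The oxidase subunits Nox4 and Cybb, which make reactive oxygen species downstream of the type 1 receptor, were lower as well. Nox4 read 6.18 and 6.17 in TTg-MI hearts, against 7.66 and 6.66 in Ctrl-MI hearts (log2 difference -0.99, SE 0.33). Cybb, a gene of phagocytes, read 8.15 and 7.35 in TTg-MI hearts, against 9.41 and 8.35 in Ctrl-MI hearts (-1.13, SE 0.42). Ccn2, connective tissue growth factor, read 12.80 and 12.04 in TTg-MI hearts, against 16.55 and 13.00 in Ctrl-MI hearts (-2.35, SE 1.096). With Ctrl-MI replicate 1 omitted, the differences of Nox4, Cybb and Ccn2 were -0.49, -0.60 and -0.58, the list's median was -0.59, and the genes with an unadjusted p under 0.05 numbered 3. With TTg-MI replicate 2 omitted there were 2 such genes, and adjusted p in limma for the 10 genes with all arrays ran from 0.530 to 0.760.

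**Figure D4:**
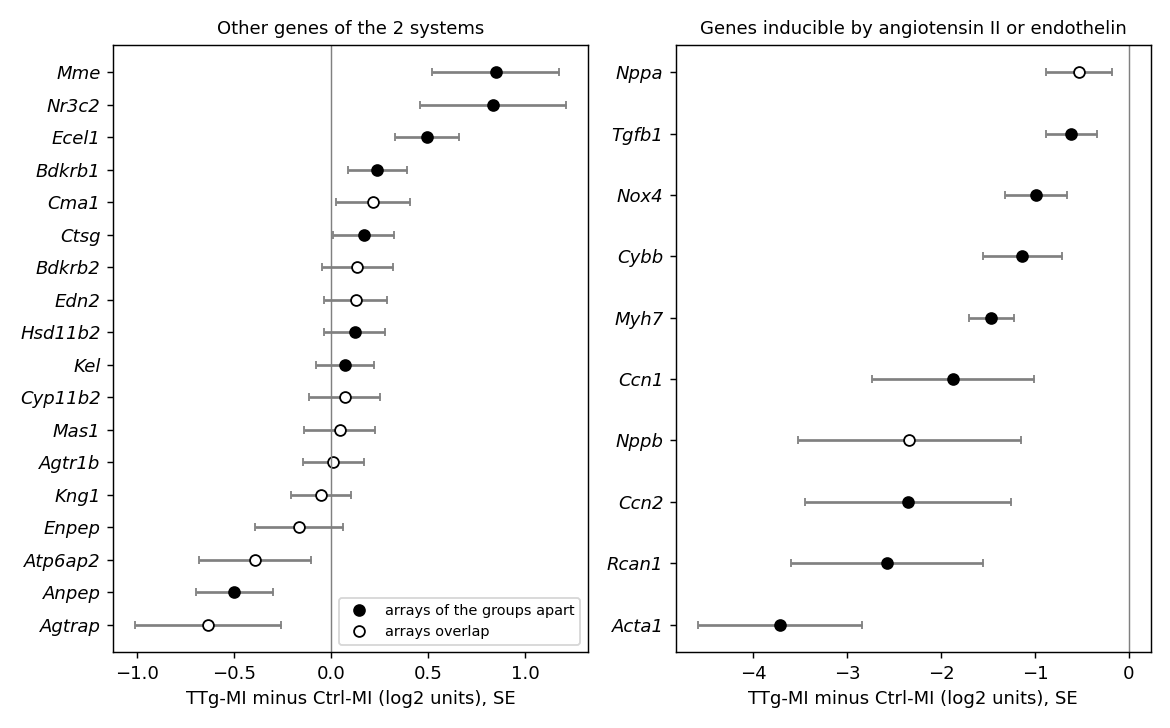
Log2 difference, TTg-MI minus Ctrl-MI, with its SE in limma, of 18 further genes of the angiotensin and endothelin systems (left) and of 10 genes inducible by angiotensin II or endothelin (right). Filled points mark genes whose TTg-MI and Ctrl-MI arrays do not overlap. The genes on the left lie on both sides of 0, between -0.63 and 0.85, and those on the right all lie below 0, between -3.72 and -0.53.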

How the data were processed

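The deposited table gave 1 expression value per probe and array for 4 hearts. Per the submitters' processing notes, the authors had used Affymetrix Expression Console 1.4. The sources used here do not give the summarization, normalization or genome build, and the deposited values were taken as log2 values, a base inferred from their range. They were used without further normalization or filter. Probes were named from the platform annotation (19572 of 22206 had 1 symbol). Coordinates are given only for RefSeq promoters.

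TTg-MI minus Ctrl-MI was fitted for every probe in R 4.3.3 with lmFit and eBayes of limma 3.58.1, and two-sided p-values were adjusted by Benjamini-Hochberg over all probes, with a threshold of 0.05. The design text calls the 2 hearts per group independent. With 2 against 2 arrays 0.333 is the smallest p of an exact permutation test, so the tests lean on variance information that limma pools over probes, with 2 residual and 3.56 prior degrees of freedom. Precision is limited by the number of arrays. The fit was tested on simulated data.

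The members, lists and tests were chosen with earlier results of these data known. Named in the report were all members and, for the lists of further system genes and of inducible genes, those with an unadjusted p under 0.05 (at most 6) and the remaining gene with the widest difference. Nppa in the list of inducible genes and the genes named from the closing section's lists were chosen after their values were seen. Alternatives tried were median centring, quantile normalization, removal of dim probes, an intensity trend with robust prior, an ordinary linear model, a replicate block, leaving out each array, 1 probe per symbol and the mean of a symbol's probes.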

Additional observations from a re-analysis of the deposited data

How the results depend on the processing

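With 12 alternatives, the differences of Agt, Agtr2, Agtr1a, Ace and Ednrb kept their sign in all. For Agt, Agtr2, Ace and Ednrb the groups did not overlap, so leaving out 1 array could not turn the sign. As each member had 1 probe, the probe choice could not change its difference. Nor could the dim filter, the trend and robust prior, the ordinary model or the block. For Agt, Agtr2, Ace and Ednrb only quantile normalization and median centring could thus have turned the sign. The difference of Ece1 reversed to 0.14 without TTg-MI replicate 2 and to 0.03 without Ctrl-MI replicate 1, that of Edn1 to 0.24 without Ctrl-MI replicate 1 and that of Edn3 to 0.24 without TTg-MI replicate 2. Leaving out single arrays, the number of the 8 genes passing the adjusted test ran from 0 to 2, the number at an unadjusted p under 0.05 from 1 to 4, and the median log2 difference from -0.51 to 0.19. Over these fits Ace ran from -1.56 to -0.53, Edn1 from -1.30 to 0.24, Edn3 from -1.38 to 0.24 and Ece1 from -0.44 to 0.14. Where 1 array of a group remained, its spread was taken from the other group. Among the 18 further genes, the number at an unadjusted p under 0.05 was 3 with all arrays, 0 to 3 leaving out single arrays, 0 in the ordinary linear model, which borrows no variance from other probes, and 5 with the replicate block. The labels do not say that replicate numbers pair the hearts, and deviations of same-numbered arrays from their group means correlated at 0.16 across probes. With the replicate block, 0 of the 8 genes passed the adjusted test, 4 had an unadjusted p under 0.05, and 7 probes of all passed, against 1 without it. All probes passing numbered 332 without Ctrl-MI replicate 2, 4 with the trend and robust prior, 2 without Ctrl-MI replicate 1 and 0 in the ordinary linear model. The cause of these changes was not tested.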

Other observations

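Genes that couple the angiotensin and endothelin receptors to the inside of the cell were listed after the data had been seen, and 14 of 17 were measured. In limma 0 passed over all probes, and 2 higher and 3 lower had an unadjusted p under 0.05, where 3.18% of all probes were higher and 5.07% lower at this level. Prkca, a protein kinase C that reacts to receptor activation, read 8.49 and 8.72 in TTg-MI hearts, against 9.46 and 9.90 in Ctrl-MI hearts (log2 difference -1.08, SE 0.21). Plcb4, a phospholipase activated by Gq proteins, differed by -0.47 (SE 0.17), and Rgs4, which switches Gq signals off, by -0.45 (SE 0.15). Rgs2, another brake on Gq signals, differed by 0.79 (SE 0.28), and Itpr2, the inositol trisphosphate receptor of cardiomyocytes, by 0.82 (SE 0.27). The Gq subunit gene Gnaq and its relative Gna11 were chosen after their values were seen. Gnaq read 9.35 and 9.32 in TTg-MI hearts, against 9.996 and 9.51 in Ctrl-MI hearts (-0.42, SE 0.21), and Gna11 differed by -0.32 (SE 0.18). For each the TTg-MI values were under the Ctrl-MI values, as for 18.7% of all probes. For the further subunit genes of the list, Gna12 (0.06, SE 0.24) and Gna13 (-0.40, SE 0.26), the groups overlapped.

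Of 12 genes of vasodilator pathways, also listed after the data had been seen, 11 were measured. In limma 0 passed over all probes and 1 had an unadjusted p under 0.05, a share of 9.09%, near the 8.25% of all probes. It was Prkg1, the kinase activated by cyclic GMP, with 6.81 and 7.00 in TTg-MI hearts, against 7.46 and 7.33 in Ctrl-MI hearts (log2 difference -0.49, SE 0.16). The widest difference of the 11 was that of Aplnr, the apelin receptor (0.77, SE 0.39; adjusted p = 0.681 in limma). Aplnr read 9.26 and 8.06 in TTg-MI hearts, against 7.79 and 7.996 in Ctrl-MI hearts. Its TTg-MI replicate 2 lay only slightly above Ctrl-MI replicate 2, so the difference rests mainly on TTg-MI replicate 1. Nos3, the endothelial nitric oxide synthase, chosen after its values were seen, overlapped between groups, with 7.72 and 8.11 in TTg-MI hearts, against 8.03 and 7.81 in Ctrl-MI hearts.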
